A study of Mus musculus with 12 samples.

Results

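The Toll-like receptors and their adaptor Myd88 were followed in mouse paw joints as 10 genes, Tlr1, Tlr2, Tlr3, Tlr4, Tlr6, Tlr7, Tlr8, Tlr9, Tlr13 and Myd88. They were taken from the 52636 gene identifiers of the count table by their mouse symbols. All 10 passed the filter on low counts and were among the 16674 genes tested. Total RNA came from the paw tissue of 12 mice, 4 per group and 1 library per animal. The mice named KBxN + 6F2 had received K/BxN serum, which carries antibodies that bring on arthritis, and 6F2, an agonistic antibody against SIRPa, an inhibitory receptor of myeloid cells (anti-SIRPa mice below). The mice named KBxN + aGP120 had received the same serum and an antibody against gp120, a viral protein that mice lack, as negative control (control-antibody mice). The naive mice had received anti-gp120 and no serum. Joints of both serum-treated groups were taken on day 7. The labels state neither strain nor age nor the dose of the antibodies. The design answers 3 questions for these genes: what serum arthritis changed, what anti-SIRPa changed within arthritis, and what still separated anti-SIRPa mice from naive mice.

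Toll-like receptors recognise microbial molecules and some molecules released from damaged tissue. At the cell surface Tlr2 pairs with Tlr1 or Tlr6 to bind bacterial lipopeptides, and Tlr4 binds lipopolysaccharide together with the small protein MD-2 (Ly96) and Cd14. Inside endosomes Tlr3 binds double-stranded RNA, Tlr7 and (known best for the human protein) Tlr8 single-stranded RNA, Tlr9 DNA with unmethylated CpG, and Tlr13, which mice have and humans lack, a bacterial ribosomal RNA. All except Tlr3 signal through Myd88, which recruits Irak kinases and Traf6 and thereby activates NF-kB. In joints these receptors are carried by macrophages, neutrophils and also synovial fibroblasts, and the data come from whole tissue, where fewer cells of a type and less RNA per cell cannot be told apart.

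All 10 genes are protein-coding and their positions are those of GENCODE M21 on GRCm38. Tlr1 (ENSMUSG00000044827, chromosome 5, 64924679 to 64933563) and Tlr6 (ENSMUSG00000051498, chromosome 5, 64952031 to 64960097) are neighbours on the minus strand. Tlr7 (ENSMUSG00000044583, 167304929 to 167330558), Tlr8 (ENSMUSG00000040522, 167242696 to 167264329) and Tlr13 (ENSMUSG00000033777, 106143204 to 106160493) lie on chromosome X. Tlr2 (ENSMUSG00000027995) lies on chromosome 3 from 83836272 to 83841767, Tlr4 (ENSMUSG00000039005) on chromosome 4 from 66827584 to 66930284 and Tlr3 (ENSMUSG00000031639) on chromosome 8 from 45395665 to 45411080. Tlr9 (ENSMUSG00000045322, 106222598 to 106226883) and Myd88 (ENSMUSG00000032508, 119335934 to 119341411) are on chromosome 9. Tlr3 overlaps the antisense gene Gm45542 and Myd88 overlaps Slc22a14, and each of these neighbours had at most 2 counts in any mouse. Myd88 also overlaps Acaa1a on the opposite strand, which had 120 to 259 counts per mouse, so that Myd88 values are uncertain to the extent that the counting ignored strand.

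The promoters of the 3 genes that passed the test between control-antibody and naive mice are shown, since they differ in the motifs they hold. RefSeq (GRCm38.p6) gave 10 promoter windows for 8 of the 10 genes; Tlr4 and Tlr7 were not matched. Only the stretch outside every GENCODE exon is printed, on the gene's own minus strand. It lies at chr3:83841768-83841858 for Tlr2, chr9:119340042-119340268 for Myd88 and chr5:64933564-64933808 for Tlr1. The Myd88 stretch lies inside the GENCODE gene, between exons, and not upstream of it. Capitals mark a kappaB consensus in Tlr2, an interferon response motif in Myd88 and GAGGAA in Tlr1.
Tlr2: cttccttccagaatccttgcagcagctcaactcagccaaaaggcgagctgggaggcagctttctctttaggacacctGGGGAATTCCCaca
Myd88: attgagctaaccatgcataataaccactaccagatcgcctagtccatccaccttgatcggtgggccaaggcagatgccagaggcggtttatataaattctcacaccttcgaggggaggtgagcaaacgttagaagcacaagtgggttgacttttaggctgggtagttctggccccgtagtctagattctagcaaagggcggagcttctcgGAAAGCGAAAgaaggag
Tlr1: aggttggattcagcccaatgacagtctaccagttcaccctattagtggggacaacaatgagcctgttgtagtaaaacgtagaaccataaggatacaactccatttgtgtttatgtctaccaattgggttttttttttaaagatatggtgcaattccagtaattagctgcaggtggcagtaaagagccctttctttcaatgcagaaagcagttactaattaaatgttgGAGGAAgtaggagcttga
Both strands of the 250 bases before each start were searched for 4 motifs. The kappaB consensus, the sequence bound by NF-kB, was present in 3.9% of 32851 RefSeq windows of that length and, among these genes, in Tlr2 (overlapping matches beginning 173 and 172 bases before the start) and Tlr3 (211 bases before). The interferon response motif, a repeated GAAA with a pair of free bases between the repeats, was in 2.98% of windows and was found in Myd88 (40 bases before the start) and Tlr6 (116 and 110). TGANTCA, the AP-1 motif, was in 6.75% of windows and in Tlr9. GAGGAA, which holds the ETS core bound by the myeloid factor PU.1, was in 23.3% of windows and in Tlr1, Tlr8, Tlr9 and Tlr13. Tlr1 and Tlr6 each had another window, which held none of the 4 motifs. All the motifs found are matches of letters only.

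The libraries held 6893969 (control-antibody mouse 2) to 17597920 counts. Levels are given as CPM, the counts scaled to a common library size with TMM factors. On this scale the detection limit of 3 counts lay between 0.17 and 0.394 CPM. The synovial lubricant gene Prg4 was at 5475 to 10158 CPM and the muscle actin gene Acta1 at 5571 to 17726 CPM in all 12 mice. Some libraries stood apart. Control-antibody mouse 1 had a summed level of 3 leukocyte genes of 64.1 CPM, inside the naive range of 62.2 to 83.4 CPM, while control-antibody mice 2, 3 and 4 had 173, 178 and 131 CPM. Control-antibody mice 2 and 4 also held 528 and 226 CPM of 1973 smell and taste receptor genes, against at most 29.3 CPM elsewhere. Anti-SIRPa mouse 2 and naive mouse 4 had 2.96 and 3.6 CPM of 5 epidermal genes, and every other library had at least 214 CPM. Anti-SIRPa mouse 4 had 13800 CPM of them, against at most 230 CPM in the rest of its group, and naive mouse 1 had 10500 CPM. Anti-SIRPa mouse 4 also had 39300 CPM of 5 skeletal muscle genes, against 57400 to 59900 CPM in the rest of its group. Values without these libraries are given below.

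Tlr2, Myd88 and Tlr1 were higher in joints with serum arthritis under the control antibody than in naive joints, and no member was called lower. This was 3 of 10 genes higher and 0 lower by edgeR's quasi-likelihood test with Benjamini-Hochberg adjustment over all tested genes (adjusted p below 0.05), where 10.3% of all 16674 genes passed, 5.87% higher and 4.45% lower. The median log2 fold change of the 10 was 0.79, against 0.03 over all genes. DESeq2 also called 3 of the 10 (17.4% of all genes) and limma-voom 1 (6.97%), and 6 of the 10 had an unadjusted edgeR p under 0.05 (28.2% of all genes). In none of the 10 were all 4 control-antibody mice above or below all naive mice (12.5% of all genes had such separated groups).

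Tlr2, the shared partner of the lipopeptide receptors, had 8.27, 23.1, 23.0 and 19.3 CPM in control-antibody mice 1 to 4. Naive mice 1 to 4 had 6.70, 5.97, 8.37 and 7.51 CPM. Control-antibody mouse 1 lay within the naive range and the other 3 were above every naive mouse. The log2 fold change was 1.36 ± 0.27 (SE; edgeR adjusted p = 0.0119). It passed without any single mouse of the 12 (adjusted p between 2.19e-05 and 0.0436) and was lost without both control-antibody mice 2 and 4 (1.10, adjusted p = 0.149) and without both naive mouse 4 and anti-SIRPa mouse 2 (1.38, adjusted p = 0.0598).

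Myd88, the adaptor, had 14.8, 45.3, 39.5 and 36.4 CPM in control-antibody mice 1 to 4, against 18.4, 14.6, 15.3 and 12.9 CPM in naive mice 1 to 4. As for Tlr2, control-antibody mouse 1 was among the naive mice and the other 3 were above all of them. The log2 fold change was 1.15 ± 0.28 (SE; edgeR adjusted p = 0.0243). The call held in 6 of 12 fits without a single mouse and was lost without naive mouse 2, 3 or 4 or control-antibody mouse 2, 3 or 4, with an adjusted p of up to 0.0781. It was also lost in limma-voom (adjusted p = 0.0632) and in the fit of only these groups (adjusted p = 0.0644).

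Tlr1, which joins Tlr2 in binding triacylated lipopeptides, was the lowest of the receptors in naive joints and had the largest fold change of the 10 genes. Control-antibody mice 1 to 4 had 4, 29, 43 and 32 counts or 0.331, 3.81, 3.25 and 2.31 CPM. Naive mice 1 to 4 had 3, 4, 8 and 6 counts or 0.183, 0.281, 0.562 and 0.460 CPM. Again 3 control-antibody mice stood above all naive mice and mouse 1 did not. The log2 fold change was 2.68 ± 0.66 (SE; edgeR adjusted p = 0.0257), on counts that reached the limit of detection in naive mouse 1. It held in 6 of 12 fits without a single mouse, the highest adjusted p being 0.0784 without control-antibody mouse 3, and limma-voom gave an adjusted p of 0.134. The calls lost were those without naive mouse 1, 2 or 4 and without control-antibody mouse 2, 3 or 4. Without both control-antibody mice 2 and 4, the edgeR adjusted p was 0.212 for Tlr1 and 0.255 for Myd88.

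Tlr6, the other partner of Tlr2, was not called. It had 0.414, 2.23, 1.36 and 1.95 CPM in control-antibody mice 1 to 4, against 1.03, 0.843, 1.34 and 0.230 CPM in naive mice 1 to 4, a log2 fold change of 0.76 ± 0.54 (SE; edgeR adjusted p = 0.381). Here too control-antibody mice 2, 3 and 4 were above every naive mouse, mouse 3 narrowly, and mouse 1 was not. Naive mouse 4 held only 3 counts. Tlr4, the lipopolysaccharide receptor, had 17.6, 13.7, 26.5 and 31.0 CPM in control-antibody mice 1 to 4 and 22.6, 21.4, 29.5 and 29.7 CPM in naive mice 1 to 4. Its groups overlapped widely, and its log2 fold change was -0.21 ± 0.23 (SE; edgeR adjusted p = 0.583).

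Of the endosomal receptors none passed the test in arthritis against naive. Tlr9, the CpG DNA receptor, had 1.74, 5.52, 9.90 and 2.67 CPM in control-antibody mice 1 to 4, against 1.16, 2.11, 1.90 and 2.61 CPM in naive mice 1 to 4. Control-antibody mice 2 and 3 stood out, and mouse 4 was just above the highest naive mouse (log2 fold change 1.35 ± 0.49, SE; edgeR adjusted p = 0.0895). Tlr13 had 4.22, 9.98, 10.9 and 10.8 CPM in control-antibody mice 1 to 4 and 4.81, 4.71, 8.30 and 4.06 CPM in naive mice 1 to 4, a difference of 0.71 ± 0.31 (log2, SE; edgeR adjusted p = 0.149). Here too control-antibody mouse 1 lay inside the naive range and the other 3 above it. Tlr8 had 2.23, 3.68, 5.97 and 4.26 CPM in control-antibody mice 1 to 4 and 2.19, 2.32, 3.02 and 1.61 CPM in naive mice 1 to 4, a difference of 0.82 ± 0.31 (log2, SE; edgeR adjusted p = 0.0996). Tlr8, Tlr9 and Tlr13 were each called when control-antibody mouse 1 was left out, at 1.01, 1.63 and 0.94 (log2; edgeR adjusted p = 0.0172, 0.0125 and 0.0126), which brought the count to 6 of 10 members. Without that mouse 4694 of all genes passed in place of 1721.

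Tlr7, the single-stranded RNA receptor next to Tlr8 on chromosome X, ran from 4.80 to 7.10 CPM in control-antibody mice and from 3.76 to 5.76 CPM in naive mice (log2 fold change 0.37 ± 0.20, SE; edgeR adjusted p = 0.257). Tlr3, the receptor that does not use Myd88, ran from 1.49 to 3.94 CPM in control-antibody mice and from 2.25 to 3.44 CPM in naive mice (-0.14 ± 0.31, SE; edgeR adjusted p = 0.806). Neither gene had separated groups. For Tlr7, control-antibody mice 2, 3 and 4 were above every naive mouse and mouse 1 was not. The sign of the Tlr3 difference turned to 0.05 without control-antibody mouse 1.

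**Figure D1:**
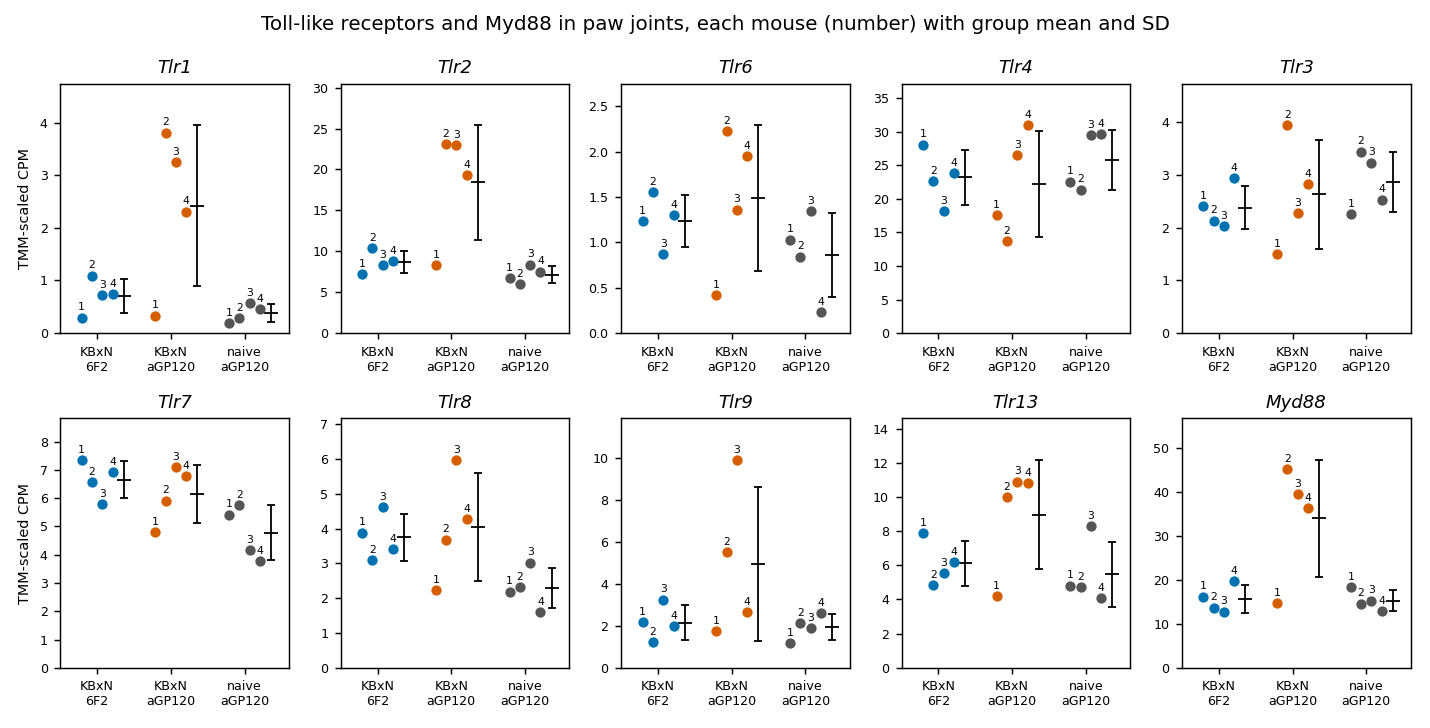
TMM-scaled CPM (vertical axes, from 0) of the 10 genes in each mouse, numbered 1 to 4 within its group, with the group mean and SD (bar beside the points, n = 4). For every gene except Tlr3 and Tlr4, control-antibody mice (KBxN aGP120) 2, 3 and 4 lie above every naive mouse while control-antibody mouse 1 lies among the naive mice.

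Under anti-SIRPa, Tlr2 and Myd88 were lower than under the control antibody, and no member was called higher. By the same edgeR test 2 of 10 genes fell and 0 rose, where 3.29% of all genes passed, 1.7% lower and 1.59% higher. The median log2 fold change of the 10 was -0.40, against -0.03 over all genes. DESeq2 also called 2 of the 10 (11.3% of all genes) and limma-voom 0 (2.07%), and 4 had an unadjusted edgeR p under 0.05 (24.4% of all genes). None of the 10 had separated groups (10% of all genes did).

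Tlr2 had 7.23, 10.4, 8.30 and 8.83 CPM in anti-SIRPa mice 1 to 4, against the 8.27, 23.1, 23.0 and 19.3 CPM of control-antibody mice 1 to 4. All 4 anti-SIRPa mice were below control-antibody mice 2, 3 and 4, and 3 of the 4 were above control-antibody mouse 1. The log2 fold change was -1.08 ± 0.27 (SE; edgeR adjusted p = 0.0448). Myd88 had 16.2, 13.7, 12.8 and 19.8 CPM in anti-SIRPa mice 1 to 4, against 14.8, 45.3, 39.5 and 36.4 CPM in control-antibody mice 1 to 4. The anti-SIRPa mice lay on both sides of control-antibody mouse 1 and below the other 3 (-1.12 ± 0.28, SE; edgeR adjusted p = 0.0465). Both calls lie close to the threshold. Tlr2 kept its call in 1 of 12 fits without a single mouse, that without control-antibody mouse 1 (-1.32, adjusted p = 0.000159), and its adjusted p reached 0.136 without control-antibody mouse 3. Myd88 kept its call in 2 of 12, without control-antibody mouse 1 (-1.36, adjusted p = 0.000108) and without anti-SIRPa mouse 4, and its adjusted p reached 0.133. Without both control-antibody mice 2 and 4 neither was called (-0.81 for Tlr2 and -0.76 for Myd88; edgeR adjusted p = 0.328 and 0.347). The direction of both stayed the same in all 12 fits without a single mouse, between -1.32 and -0.95 for Tlr2 and between -1.36 and -0.95 for Myd88.

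The lower values of Tlr1 and Tlr9 did not pass the test. Tlr1 had 5, 17, 10 and 13 counts in anti-SIRPa mice 1 to 4, or 0.294, 1.09, 0.722 and 0.736 CPM, which placed 3 of the 4 between control-antibody mouse 1 and the other control-antibody mice. Its log2 fold change was -1.75 ± 0.62 (SE; edgeR adjusted p = 0.113). Tlr9 had 2.17, 1.22, 3.25 and 1.98 CPM in anti-SIRPa mice 1 to 4, a difference of -1.20 ± 0.48 against the control antibody (SE; edgeR adjusted p = 0.151). Tlr13 had 7.87, 4.83, 5.56 and 6.17 CPM in anti-SIRPa mice 1 to 4, all between control-antibody mouse 1 and the other 3 (-0.55 ± 0.31, SE; edgeR adjusted p = 0.282). Without control-antibody mouse 1, Tlr1 (-2.11), Tlr9 (-1.47) and Tlr13 (-0.78) were also called (edgeR adjusted p = 0.00723, 0.0235 and 0.0362), giving 5 of 10 members and 3976 of all genes in place of 548.

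The remaining 5 receptors differed from the control-antibody mice by less than their SE. Tlr6 ran from 0.866 to 1.55 CPM in anti-SIRPa mice and differed by -0.25 ± 0.53 (log2, SE; edgeR adjusted p = 0.813). Tlr3 ran from 2.02 to 2.94 CPM and differed by -0.13 ± 0.31 (log2, SE; edgeR adjusted p = 0.834). Tlr4, at 28.1, 22.7, 18.2 and 23.9 CPM in anti-SIRPa mice 1 to 4, differed by 0.06 ± 0.23 (log2, SE; edgeR adjusted p = 0.897). Tlr7 and Tlr8 differed by 0.11 ± 0.20 and -0.11 ± 0.30 (log2, SE; edgeR adjusted p = 0.775 and 0.857). For Tlr3, Tlr4, Tlr6 and Tlr8 the sign of the difference turned when single mice or pairs of mice were left out.

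Between anti-SIRPa and naive mice no member was called, nor any of the 16674 genes (0% of all genes; 675 genes, or 4.05%, had an unadjusted edgeR p under 0.05, and DESeq2 called 20 genes, or 0.12%). At an unadjusted p under 0.05 the members counted 2 of 10, Tlr7 and Tlr8, and neither DESeq2 nor limma-voom called a member. The median log2 fold change of the 10 was 0.22, against -0.01 over all genes. Tlr7 had 7.35, 6.57, 5.78 and 6.91 CPM in anti-SIRPa mice 1 to 4 and 5.42, 5.76, 4.15 and 3.76 CPM in naive mice 1 to 4. Tlr8 had 3.88, 3.09, 4.62 and 3.40 CPM in anti-SIRPa mice 1 to 4 and 2.19, 2.32, 3.02 and 1.61 CPM in naive mice 1 to 4. For both neighbours on chromosome X every anti-SIRPa mouse was above every naive mouse, by a narrow margin (3.04% of all genes had groups separated in that direction). The log2 fold changes were 0.48 ± 0.20 for Tlr7 and 0.71 ± 0.31 for Tlr8 (SE; edgeR unadjusted p = 0.0334 and 0.0365). Tlr2 differed by 0.28 ± 0.27 and Myd88 by 0.03 ± 0.27 (log2, SE; edgeR unadjusted p = 0.306 and 0.914), and Tlr1 by 0.93 ± 0.67 (edgeR unadjusted p = 0.187). The control-antibody mice are shared by the first pair of comparisons and the naive mice by the first and the last, so that the fold changes are not independent of one another.

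**Figure D2:**
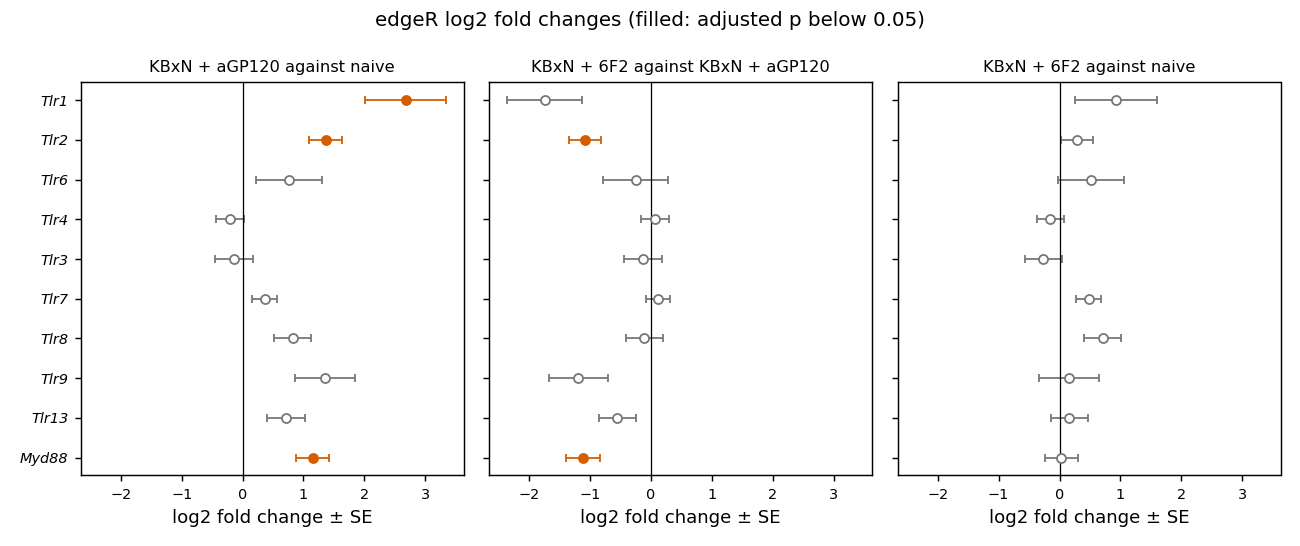
edgeR log2 fold changes (horizontal axes) with their SE (bars) for the 10 genes in the 3 comparisons, n = 4 mice per group; filled points have an adjusted p below 0.05. Tlr1, Tlr2 and Myd88 are filled in arthritis against naive, Tlr2 and Myd88 in anti-SIRPa against control antibody, and no gene in anti-SIRPa against naive.

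Levels of different genes were compared per length, as CPM per kilobase of merged exons (CPM per kb). In anti-SIRPa mice the order was Myd88 (6.06 ± 1.22 CPM per kb, SD, n = 4), Tlr4 (4.18 ± 0.733), Tlr2 (2.88 ± 0.434), Tlr7 (1.63 ± 0.163), Tlr13 (1.42), Tlr8 (1.04), Tlr9 (0.62), Tlr3 (0.456), Tlr6 (0.332) and Tlr1 (0.213). Only Tlr2 and Tlr7 were neighbours in this order whose ranges did not overlap. In control-antibody mice the order was Myd88 (13.2 ± 5.17 CPM per kb, SD, n = 4), Tlr2 (6.11 ± 2.32), Tlr4 (3.99 ± 1.43), Tlr13 (2.09), Tlr7 (1.51), Tlr9 (1.42), Tlr8 (1.13), Tlr1 (0.725), Tlr3 (0.505) and Tlr6 (0.399), and every pair of neighbours overlapped. In naive mice it was Myd88 (5.94 ± 0.903 CPM per kb, SD, n = 4), Tlr4 (4.64 ± 0.787), Tlr2 (2.37 ± 0.343), Tlr13 (1.27), Tlr7 (1.17), Tlr8 (0.637), Tlr9 (0.558), Tlr3 (0.55), Tlr6 (0.231) and Tlr1 (0.111). Here the ranges of Tlr4 and Tlr2, of Tlr2 and Tlr13, of Tlr7 and Tlr8 and of Tlr3 and Tlr6 did not overlap. With the longest transcript as the length, Tlr4 stood at 5.70, 5.44 and 6.33 CPM per kb in anti-SIRPa, control-antibody and naive mice and came before Myd88 in naive mice.

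The shares of the 2 most abundant surface receptors in the receptor total are given as a description, without a test. Tlr2 held 22.7% ± 3.99 of their summed CPM per kb in anti-SIRPa mice, 33.5% ± 5.02 in control-antibody mice and 20.5% ± 1.25 in naive mice (SD, n = 4 each). The Tlr2 share ran from 17.5 to 27.2% in anti-SIRPa mice, from 28.3 to 40.4% in control-antibody mice and from 18.8 to 21.5% in naive mice, so that the control-antibody mice stood apart and the other groups overlapped. Tlr4 held 32.6% ± 3.78 in anti-SIRPa mice, 23.6% ± 8.66 in control-antibody mice and 40.2% ± 4.13 in naive mice (SD, n = 4 each). Its share ran from 27.8 to 37.0% in anti-SIRPa mice, which overlapped both the 12.9 to 32.7% of control-antibody mice and the 36.5 to 46.1% of naive mice. The summed level of the 9 receptors was 12.8 ± 0.784, 17.9 ± 5.71 and 11.5 ± 1.44 CPM per kb (SD, n = 4 each). Tlr1 held at most 5.99% of the sum in any mouse.

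The ratio of Tlr2 to Tlr4 CPM was computed after these values had been seen and is given as a description without a test. It was 0.257, 0.456, 0.456 and 0.369 in anti-SIRPa mice 1 to 4. Control-antibody mice 1 to 4 had 0.469, 1.69, 0.866 and 0.622, and naive mice 1 to 4 had 0.296, 0.279, 0.284 and 0.253. Control-antibody mouse 1, inside the naive range for Tlr2 and below it for Tlr4, had a ratio above all naive mice and just above all anti-SIRPa mice. The mean log2 ratio was 1.54 higher in control-antibody than in naive mice (1.19 to 1.81 with 1 mouse left out) and -1.11 in anti-SIRPa against control-antibody mice (-1.37 to -0.75), both with separated ranges. It was 0.43 higher in anti-SIRPa than in naive mice, with overlapping ranges. The ratio of Tlr1 to Tlr6, the alternative partners of Tlr2, was 0.238, 0.708, 0.833 and 0.565 in anti-SIRPa mice 1 to 4. Control-antibody mice 1 to 4 had 0.800, 1.71, 2.39 and 1.19, and naive mice 1 to 4 had 0.176, 0.333, 0.421 and 2.0. The ranges overlapped in every comparison, and the ratio of naive mouse 4 came from 6 counts of Tlr1 and 3 of Tlr6. The ratios of Tlr8 to Tlr7 and of Tlr13 to Tlr7 were also computed and overlapped in every comparison. The share of separated ratios over other gene pairs was not computed.

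**Figure D3:**
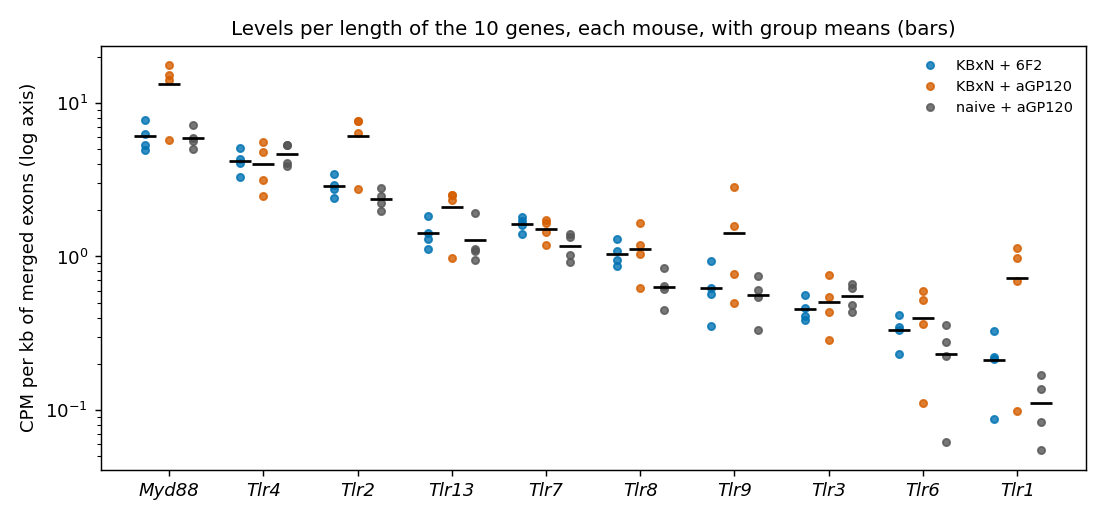
CPM per kb of merged exons (vertical log axis) of each mouse (points) and the group mean (bars) for the 10 genes, ordered by their mean in naive mice. Tlr2 stands above Tlr4 in the mean of control-antibody mice, at 6.11 against 3.99 CPM per kb, and below it in the other groups.

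Some markers of macrophages, neutrophils and fibroblasts were higher in control-antibody than in naive mice. Over all genes 5.87% were called higher in that comparison. Of 9 tested monocyte and macrophage genes 5 were higher in control-antibody than in naive mice and 0 lower, among them Mpeg1 (1.96 ± 0.34, log2, SE; edgeR adjusted p = 0.00964), and 0 passed in anti-SIRPa against control-antibody mice (list median -0.56). The summed CPM of the 10 listed genes was 302 to 396 in anti-SIRPa mice, 234 in control-antibody mouse 1 and 483 to 545 in mice 2 to 4, and 262 to 278 in naive mice. The summed CPM of 7 neutrophil genes was 14.9 to 29.2 in anti-SIRPa mice, 17.5 in control-antibody mouse 1 and 73.8 to 377 in mice 2 to 4, and 12 to 28.5 in naive mice, with Ly6g at 0 in all anti-SIRPa mice. Of 4 tested neutrophil genes 3 were called higher in control-antibody than in naive mice. In anti-SIRPa against control-antibody mice Clec4d alone was called lower (-3.19 ± 0.55, log2, SE; edgeR adjusted p = 0.0193), as were 1.7% of all genes. Csf3r, Cxcr2 and Mmp9 were at -2.50, -2.53 and -3.10 there and were not called (log2; edgeR adjusted p = 0.0796, 0.063 and 0.0671). Of 3 pan-leukocyte genes Ptprc (1.11 ± 0.27, log2, SE; edgeR adjusted p = 0.0237) and Coro1a (1.28 ± 0.29; edgeR adjusted p = 0.0194) were higher in control-antibody than in naive mice. In anti-SIRPa against control-antibody mice they were not called, at -0.24 ± 0.26 and -0.44 ± 0.28 (log2, SE; edgeR adjusted p = 0.61 and 0.352). Both were above every naive mouse in all anti-SIRPa mice, at 0.87 ± 0.26 and 0.84 ± 0.29 (log2, SE; edgeR adjusted p = 1 each, unadjusted p = 0.00573 and 0.0116), as were 3.04% of all genes. The remaining pan-leukocyte gene, Laptm5, overlapped there, as Tlr2 and Myd88 did (0.26 ± 0.25, log2, SE; edgeR unadjusted p = 0.322). Laptm5 was not called in control-antibody against naive mice (0.73 ± 0.26, log2, SE; edgeR adjusted p = 0.0835).

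Of 6 fibroblast genes 2 were called higher in control-antibody than in naive mice, against 5.87% of all genes. They were Pdpn (1.97 ± 0.32, log2, SE; edgeR adjusted p = 0.00763) and the collagen gene Col1a1 (2.09 ± 0.45; edgeR adjusted p = 0.0165). Pdpn, which encodes podoplanin, was lower in anti-SIRPa than in control-antibody mice (-1.54 ± 0.31, log2, SE; edgeR adjusted p = 0.0314), with separated ranges in both comparisons. Pdgfra, Dcn, Prg4 and Thy1 were at 0.03, -0.28, -0.36 and 0.64 in control-antibody against naive mice (log2, edgeR adjusted p = 0.885, 0.277, 0.269 and 0.253). The tested granulocyte precursor and erythroid genes all had positive log2 fold changes in anti-SIRPa against control-antibody mice, where those of Tlr2 and Myd88 were negative. The 6 precursor genes summed to 6.17 to 52.1 CPM in anti-SIRPa mice, 1.44 to 3.23 CPM in control-antibody mice and 0.141 to 5.06 CPM in naive mice. None of the 3 tested was called in anti-SIRPa against control-antibody mice, Ngp being at 3.47 ± 0.86 and Mpo at 3.73 ± 1.06 (log2, SE; edgeR adjusted p = 0.0509 and 0.0703). The 4 erythroid genes summed to 11.3 to 31.5 CPM in anti-SIRPa mice, 4.33 to 6.7 CPM in control-antibody mice and 8.72 to 10.8 CPM in naive mice, and the globin gene Hbb-bs was higher in anti-SIRPa than in control-antibody mice (2.02 ± 0.40, log2, SE; edgeR adjusted p = 0.0292). It was 1 of 3 tested erythroid genes, where 1.59% of all genes were called higher. Of 5 endothelial genes Tek alone was called, lower in control-antibody than in naive mice (-0.46 ± 0.11, log2, SE; edgeR adjusted p = 0.0247) and higher in anti-SIRPa than in control-antibody mice (0.47 ± 0.11; edgeR adjusted p = 0.0414). Pecam1, Cdh5, Kdr and Emcn had the opposite signs and were not called. They were at 0.18, 0.39, 0.28 and 0.35 in control-antibody against naive mice (log2). In anti-SIRPa against control-antibody mice they were at -0.27, -0.39, -0.27 and -0.84 (log2). Over all genes 4.45% were called lower in control-antibody against naive mice and 1.59% higher in anti-SIRPa against control-antibody mice. The 6 B cell genes summed to at most 11.4 CPM and the 5 T cell genes to at most 4.99 CPM in any mouse. The 5 skeletal muscle genes summed to 39300 to 59900 CPM in anti-SIRPa mice, 21900 to 62200 CPM in control-antibody mice, with mouse 1 highest, and 51400 to 74000 CPM in naive mice. The part of these cells in the receptor values was not tested.

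Set against the mean log2 CPM of the monocyte and macrophage list in the same mouse, the differences of Tlr2 and Myd88 between control-antibody and naive mice were 0.29 and 0.08 on the log2 scale and the ranges overlapped. The difference of Tlr1, from low counts, was 1.06, also with overlapping ranges. Tlr4 stood at -0.43 ± 0.66 relative to that list in control-antibody mice and at 0.81 ± 0.25 in naive mice (log2, SD, n = 4 each), with separated ranges. Tlr3 stood at -3.44 ± 0.40 and -2.30 ± 0.19 in the same groups, also separated. Lower separated ranges on this scale were found for 20.9% of all genes. In anti-SIRPa against naive mice Tlr3 and Tlr4 were also lower and separated, at differences of -0.77 and -0.66 (log2), as were 40% of all genes. Between anti-SIRPa and control-antibody mice Myd88 was lower on this scale, at -0.43 ± 0.27 against 0.14 ± 0.19 (1.31% of all genes were separated in that direction), and Tlr8 was higher, at -2.44 ± 0.18 against -2.85 ± 0.25 (2.38% of all genes). Tlr2 was at -1.25 ± 0.32 in anti-SIRPa mice and -0.73 ± 0.13 in control-antibody mice, with ranges that overlapped narrowly. Set against Ptprc alone in the same mouse, Tlr2 was separated between these groups, at -1.47 ± 0.46 in anti-SIRPa mice and -0.63 ± 0.15 in control-antibody mice (2.83% of all genes), while Myd88 and Tlr8 overlapped. In anti-SIRPa against naive mice every member was lower on the Ptprc scale, from -1.10 for Tlr3 to -0.15 for Tlr1 and Tlr8 (log2). Myd88 was at -0.83 and Tlr2 at -0.57 there, where Ptprc itself was 0.87 higher (log2). The median log2 fold change over all genes was -0.005 in that comparison. Most genes therefore lie lower on the Ptprc scale, and this is not particular to the members.

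**Figure D4:**
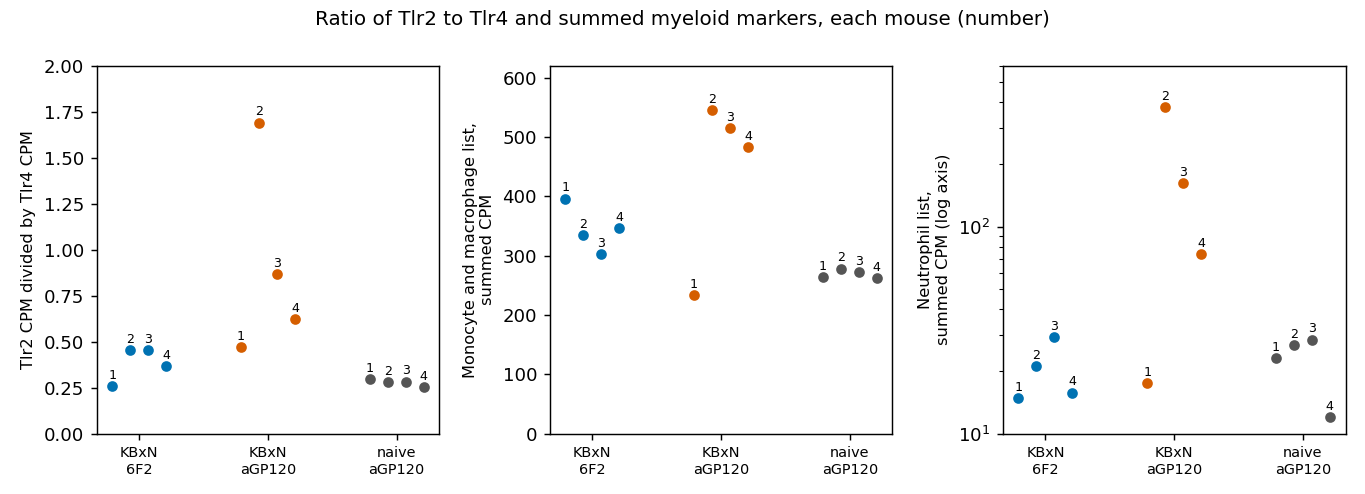
Ratio of Tlr2 to Tlr4 CPM (left), summed CPM of 10 monocyte and macrophage genes (middle) and summed CPM of 7 neutrophil genes (right, log axis) in each mouse, numbered 1 to 4 within its group. Control-antibody mice 2, 3 and 4 are highest in all panels, and control-antibody mouse 1 has a ratio of 0.469 beside marker sums of 234 and 17.5 CPM.

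The molecules around the receptors were described from 4 gene lists and the other mouse receptor genes Tlr5, Tlr11 and Tlr12, of which 53 of 56 genes passed the filter on low counts. In control-antibody against naive mice 15 of the 53 passed the edgeR test, or 28.3%, 12 higher and 3 lower, against 10.3% of all genes. DESeq2 called 22 of them and limma-voom 12, against 17.4% and 6.97% of all genes. Of the 15, 3 kept their call without any single mouse (Saa3, Cd14 and Cnpy3), and none did without both control-antibody mice 2 and 4 or without both naive mouse 4 and anti-SIRPa mouse 2. In anti-SIRPa against control-antibody mice 3 of 53 passed (5.66%, against 3.29% of all genes), 2 higher and 1 lower, and none kept its call without any single mouse. DESeq2 called 12 and limma-voom 1 there, against 11.3% and 2.07% of all genes. In anti-SIRPa against naive mice 0 of 53 passed by edgeR, DESeq2 or limma-voom, and 7 had an unadjusted edgeR p under 0.05, against 4.05% of all genes.

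Among 10 endogenous ligands, proteins of the tissue reported to act on Tlr2 or Tlr4, 4 were higher and 1 lower in control-antibody than in naive mice (50% of the list, against 10.3% of all genes; median log2 fold change 0.97). Tnc, which encodes the matrix protein tenascin C, had 93.9, 845, 722 and 409 CPM in control-antibody mice 1 to 4, against 86.3, 95.0, 86.5 and 45.5 CPM in naive mice 1 to 4. As for Tlr2, only mouse 1 of the control-antibody mice lay in the naive range (2.72 ± 0.59, log2, SE; edgeR adjusted p = 0.0221). The gene of the acute-phase protein Saa3 had no count in any naive mouse and 0.579, 15.1, 19.4 and 7.36 CPM in control-antibody mice 1 to 4. Its mean was at least 51.0-fold higher in control-antibody mice than the limit of 3 counts per naive library (edgeR adjusted p = 0.0178), and limma-voom and the fit without a filter did not call it. Bgn, for the proteoglycan biglycan, and Hspd1, for a mitochondrial chaperone, were higher by 1.27 ± 0.30 and 0.69 ± 0.16 (log2, SE; edgeR adjusted p = 0.0226 and 0.0221). Hspa1a, an inducible heat-shock gene, was lower by edgeR (-1.25 ± 0.28, log2, SE; adjusted p = 0.0177). The alarmin genes S100a8 and S100a9 were not called, at 1.07 ± 0.60 and 2.09 ± 0.88 (log2, SE; edgeR adjusted p = 0.263 and 0.148). None of the 10 ligands passed in anti-SIRPa against control-antibody mice (median -0.19), Tnc being at -2.20 ± 0.58 and Hspa1a at 1.03 ± 0.27 (log2, SE; edgeR adjusted p = 0.063 and 0.0556). S100a8 and S100a9 were at 1.07 ± 0.58 and 0.87 ± 0.81 there (log2, SE; edgeR adjusted p = 0.269 and 0.547). In anti-SIRPa against naive mice they were at 2.14 ± 0.60 and 2.96 ± 0.88 (log2, SE; edgeR adjusted p = 1 each, unadjusted p = 0.0033 and 0.00673). S100a9 had 6.11, 8.24, 24 and 3.23 CPM in anti-SIRPa mice 1 to 4, 2.32, 8.80, 7.18 and 4.62 CPM in control-antibody mice 1 to 4, and 0.487, 3.02, 0.0703 and 1.76 CPM in naive mice 1 to 4. All anti-SIRPa mice were above all naive mice, the lowest by a narrow margin, and mouse 3, the highest, also had the highest precursor sum.

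Of 11 co-receptors, chaperones and trafficking factors 10 were tested. Of these, 4 were higher and 1 lower in control-antibody than in naive mice (50% of those tested, against 10.3% of all genes). Their median log2 fold change was 0.59. Cd14, which hands lipopolysaccharide and lipopeptides to Tlr4 and Tlr2, had 14.4, 10.4, 9.02 and 12.7 CPM in anti-SIRPa mice 1 to 4 and 12, 27.3, 37.2 and 20.9 CPM in control-antibody mice 1 to 4. Naive mice 1 to 4 had 11.5, 6.67, 9.63 and 6.97 CPM. All control-antibody mice were above all naive mice, mouse 1 by a narrow margin (1.48 ± 0.30, log2, SE; edgeR adjusted p = 0.0137). The difference between anti-SIRPa and control-antibody mice did not pass (-1.06 ± 0.30, log2, SE; edgeR adjusted p = 0.063). Unc93b1, which carries the endosomal receptors out of the endoplasmic reticulum, was higher in control-antibody than in naive mice (1.05 ± 0.22, log2, SE; edgeR adjusted p = 0.0153). So were Hsp90b1 and Cnpy3, the chaperone and its partner that fold most Toll-like receptors (0.83 ± 0.19 and 0.72 ± 0.14, log2, SE; edgeR adjusted p = 0.0194 and 0.0114). Ly96, the partner of Tlr4, had 0 to 14 counts per mouse and was below the filter.

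Cd36, a scavenger receptor that works with Tlr2 and Tlr6 and is also abundant in fat, muscle and capillaries, moved the other way. It had 75.7, 75.8, 77.2 and 74.5 CPM in anti-SIRPa mice 1 to 4, against 56.9, 24.2, 39.3 and 37.6 CPM in control-antibody mice 1 to 4. Naive mice 1 to 4 had 67.4, 71.0, 77.2 and 62.3 CPM. The control-antibody mice were below every mouse of the other groups, mouse 1 included. The log2 fold change was 0.94 ± 0.19 in anti-SIRPa against control-antibody mice (SE; edgeR adjusted p = 0.0289) and -0.81 ± 0.19 in control-antibody against naive mice (SE; edgeR adjusted p = 0.0201).

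Of 22 adaptors, kinases and interferon regulatory factors downstream of the receptors 3 were higher and 1 lower in control-antibody than in naive mice (18.2%, against 10.3% of all genes). The list's median log2 fold change was -0.04. The 3 were Irak4, the kinase that binds Myd88 (1.14 ± 0.25, log2, SE; edgeR adjusted p = 0.0166), Pik3ap1, the adaptor BCAP (1.49 ± 0.31; edgeR adjusted p = 0.0152), and Irf7, a transcription factor of the interferon response (1.96 ± 0.46; edgeR adjusted p = 0.0236). Traf3, an adaptor on the path to interferon, was lower (-0.60 ± 0.16, log2, SE; edgeR adjusted p = 0.0296). None of the 22 passed in anti-SIRPa against control-antibody mice (median 0.03). Of 10 inhibitors 1 was called in control-antibody against naive mice (10%, near the 10.3% of all genes). Tnfaip3, which encodes A20, a ubiquitin-editing brake on NF-kB, was higher in control-antibody than in naive mice (1.01 ± 0.22, log2, SE; edgeR adjusted p = 0.0177). In anti-SIRPa against control-antibody mice Tnfaip3 was lower (-0.88 ± 0.22, log2, SE; edgeR adjusted p = 0.048) and Dusp1, a phosphatase that switches off MAP kinases, was higher (0.70 ± 0.18, log2, SE; edgeR adjusted p = 0.0472). These calls were 20% of the 10 inhibitors, against 3.29% of all genes. Dusp1 had 65.7, 92.1, 71.0 and 88.7 CPM in anti-SIRPa mice 1 to 4, above the 63.4, 50.4, 38.8 and 42.5 CPM of control-antibody mice 1 to 4. Tnfaip3 kept this call in 1 and Dusp1 in 2 of 12 fits without a single mouse.

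**Figure D5:**
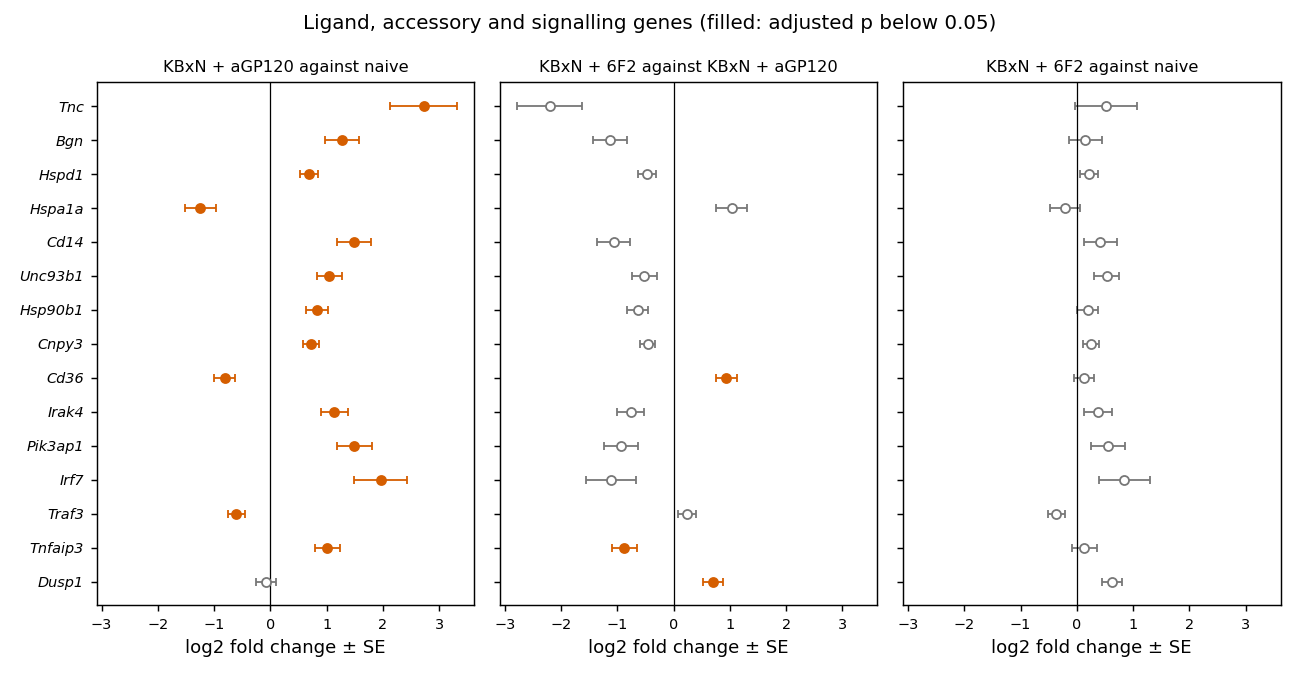
edgeR log2 fold changes (horizontal axes) with their SE (bars) of 15 ligand, accessory and signalling genes in the 3 comparisons, n = 4 mice per group. Filled points have an adjusted p below 0.05. Saa3, called in arthritis against naive, is not drawn, and Dusp1 is called only in anti-SIRPa against control antibody. Cd36 lies at -0.81 in arthritis against naive and at 0.94 in anti-SIRPa against control antibody, on the other side of 0 from Cd14 in both panels.

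Of the remaining mouse receptor genes only Tlr5 passed the filter. Tlr5, the flagellin receptor, averaged 0.520 ± 0.259 CPM per kb in anti-SIRPa mice, 0.952 ± 0.312 in control-antibody mice and 0.622 ± 0.229 in naive mice (SD, n = 4 each), a mean above those of Tlr1, Tlr3 and Tlr6 in each group. In anti-SIRPa and naive mice the Tlr3 means, 0.456 and 0.55 CPM per kb, differed from those of Tlr5 by less than the SD of Tlr5. In CPM it ran from 1.55 to 6.57 CPM over the 12 mice and was not called in control-antibody against naive mice (0.60 ± 0.37, log2, SE; edgeR adjusted p = 0.302) or in anti-SIRPa against control-antibody mice (-0.86 ± 0.37; edgeR adjusted p = 0.177). Tlr11 had 0 to 6 counts and Tlr12 0 to 10 counts per mouse, and both were below the filter.

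The genes whose pattern over the 12 mice lay nearest to a member were found by the root mean square distance of log2 CPM, each gene centred on its own mean, among genes with a mean log2 CPM of at least 1. For Tlr2 these were Armcx2 (0.15) and Fads3 (0.16), where the distance of Tlr2 from a flat line was 0.66. For Myd88 they were Tpm4 (0.14) and 1700017B05Rik (0.16), against 0.63 from a flat line. Tlr1 lay nearest to Aplnr (0.39) and Socs3 (0.41), and Tlr7 to Tmsb4x (0.1) and Commd10 (0.12). Tlr4 lay nearest to Rps19bp1 and Tead4 (0.2 each) and Tlr3 to Frmd8 (0.15). Tlr6 lay nearest to Bmp3 (0.34) and Sytl2 (0.36), Tlr8 to Glt8d1 (0.19) and Mme (0.2), Tlr9 to Gm1966 (0.32) and Basp1 (0.35), and Tlr13 to Tmem263 and Ttf2 (0.19 each). Within the 10 genes the nearest pair was Tlr2 and Myd88, at 0.28. Tlr3 and Tlr4 were each nearest to Tlr7, at 0.44 and 0.45, beyond their own distance from a flat line (0.35 and 0.34).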

How the data were processed

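Total RNA of mouse paw joints was made into stranded total RNA libraries, per the labels' protocols. The authors deposited raw read counts per Ensembl gene for each of the 12 mice, and the build is GRCm38 per the submitters' processing notes. Aligner, counter and strand setting: not given in the sources used here. Identifiers were paired with symbols for 52403 of 52636, and those without held 0.024% of counts.

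Counts were fitted with edgeR 4.0.16 (R 4.3.3): filterByExpr, TMM scaling, robust quasi-likelihood fit over all 12 mice with 1 coefficient per group, and Benjamini-Hochberg adjustment over 16674 genes with a threshold of 0.05. The common biological coefficient of variation was 0.334. Log2 CPM used a prior count of 2. Alternatives were DESeq2 1.42.0, limma-voom 3.58.1, other size factors and filters, a replicate block and left-out mice. Exon lengths came from GENCODE M21 and promoters from RefSeq. The limit of 3 counts covers counting error only. Each library is 1 animal.

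The genes, the gene lists and the markers were chosen with earlier results of these data known. The genes named are the 9 receptors and Myd88, the other mouse receptors, list genes past the threshold in a comparison and the nearest patterns. S100a8, S100a9, Ly96 and the markers named were chosen after their values were seen. A gene near Tlr3 in pattern is not reported here.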

Additional observations from a re-analysis of the deposited data

Results flagged for a closer look

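Of 30 sets of 4 mice (10 genes in 3 groups), 1 held a mouse far from the others by Dixon's test, where chance gives about 1 in 20. It was Tlr13 in control-antibody mouse 1, at 4.22 CPM, against 9.98, 10.9 and 10.8 CPM in control-antibody mice 2, 3 and 4. The same mouse had the lowest summed leukocyte, monocyte and macrophage, and neutrophil markers of its group, at 64.1, 234 and 17.5 CPM, and their part in the Tlr13 value was not tested.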

How the results depend on the processing

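In control-antibody against naive mice the count of called members was 3 in the reported fit, 1 in limma-voom and in the fit of only these groups, 1 to 6 with a mouse left out (6 without control-antibody mouse 1), and 0 without control-antibody mice 2 and 4 or without naive mouse 4 and anti-SIRPa mouse 2. In anti-SIRPa against control-antibody mice it was 2 in the reported fit, 1 without robust estimation, 0 in limma-voom and in the fit of only these groups, 0 to 5 with a mouse left out, and 0 without either pair of mice. In anti-SIRPa against naive mice it was 0 under every alternative run. Replicate numbers did not pair the mice (correlations of same-numbered deviations between -0.8 and 0.207); with the replicate block the 3 counts were 2, 0 and 0. Over all genes, the 1721 calls in control-antibody against naive mice were 2905 by DESeq2, 735 with the block, 435 in the fit of only these groups and 412 to 4694 with a mouse left out, and 1 and 166 without the pairs. The 548 calls in anti-SIRPa against control-antibody mice were 1892 by DESeq2, 345 by limma-voom, 78 with the block, 0 in the fit of only these groups, 0 to 3976 with a mouse left out and 0 without either pair. Pathway genes called were 9 with the block and 3 to 25 with a mouse left out for the first comparison, and 0 and 0 to 20 for the second. In anti-SIRPa against naive mice 4 of all genes were called with no filter.

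Among the log2 fold changes of members 13 changed sign under an alternative, none of them called. With a mouse left out, Tlr3 in control-antibody against naive mice ran from -0.38 to 0.05. In anti-SIRPa against control-antibody mice Tlr3 ran from -0.31 to 0.12, Tlr4 from -0.11 to 0.27 and Tlr8 from -0.3 to 0.15. In anti-SIRPa against naive mice Tlr9 ran from -0.11 to 0.35 and Myd88 from -0.1 to 0.13. Without control-antibody mice 2 and 4, Tlr3 was 0.37 and Tlr6 0.51 in anti-SIRPa against control-antibody mice, and without naive mouse 4 and anti-SIRPa mouse 2 Tlr8 was 0. The cause was not tested. The limit of 3 counts, 0.17 to 0.394 CPM, bears on Tlr1 and Tlr6, which reached it in a naive mouse.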
